A study of Mus musculus with 2 samples.

Results

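The autophagy initiation and conjugation machinery comprised 36 genes, chosen by symbol from the ULK kinase complex to the cargo receptors, and all 36 were matched to 1 gene entry each among the 43346 gene entries measured. The rule uses gene names and no expression value, but it was written with earlier results of these data known. Poly(A) RNA was sequenced in paired-end mode from G1E-ER4 cells, a mouse erythroid line without functional endogenous Gata1 that carries the transcription factor GATA1 joined to the part of the estrogen receptor that binds the hormone. Before harvest the cells received 10 nM 17beta-estradiol for 30 h, which switches the fusion protein on and starts erythroid differentiation. The 2 libraries were labelled biological replicates 1 and 2 of 1 group, and an untreated group was not analysed here. The values therefore describe levels, transcript use and the difference between the libraries, and carry no effect of estradiol. All values come from 1 cell line.

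Macroautophagy encloses cytoplasm in a double membrane, the autophagosome, and delivers it to the lysosome. The ULK kinase complex starts the process, a class III phosphatidylinositol 3-kinase complex marks the site with lipid, ATG9 vesicles and ATG2 supply membrane, and 2 ubiquitin-like conjugation reactions attach ATG8 proteins (the LC3 and GABARAP families) to it. Cargo receptors bind ATG8 proteins and the material to be removed, and the SNARE protein syntaxin 17 takes part in fusion with the lysosome. Erythroid cells are known to remove mitochondria and other organelles by autophagy as they mature, and Ulk1 is among the genes implicated in that clearance.

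The gene entries summed to 73681313 counts in replicate 1 and 56056399 in replicate 2. All 8 erythroid markers reached 1 TPM in both libraries (TPM is an abundance per transcript length, set to an equal total in each library). No mast cell, lymphoid, fibroblast or endothelial marker did, and 3 of 6 megakaryocyte markers did. None of the 8 myeloid markers reached 1 TPM in both libraries, but their sum was 0.320 TPM in replicate 1 and 10.9 TPM in replicate 2. Mpo, Elane and Prtn3 carried most of it, at 3.96, 3.04 and 3.76 TPM in replicate 2. In bulk RNA, fewer cells of a type and less RNA per cell cannot be told apart. Errors are SD over the 2 libraries (n = 2). The labels do not say how the cultures were separated, so the spread may be technical.

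Most of the machinery was expressed, and by gene total its highest genes stood near the top of the expressed genes. At least 1 TPM in both libraries was reached by 29 of the 36 members (80.6%), against 35.3% of 21474 protein-coding genes. At least 10 TPM was reached by 23 members (63.9%), against 20.4% of protein-coding genes. Of those with at least 1 TPM, it was reached by 79.3% of members and 57.7% of protein-coding genes. The median over all 36 members was 17.9 TPM. Among genes with at least 1 TPM, the median was 27.5 TPM in members and 15.4 TPM in protein-coding genes. Becn1, Sqstm1, Atg9a and Nbr1 were the 4 members above 100 TPM in both libraries, with means from 205 to 227 TPM. That is 11.1% of members, against 4.32% of protein-coding genes. Of those with at least 1 TPM, it is 13.8% of members and 12.3% of protein-coding genes. The library values of these 4 overlapped, so they could not be ranked. With protein-coding transcripts alone Becn1 had 7.24 TPM and Nbr1 11.6 TPM. The 7 members that did not reach 1 TPM in both libraries were Pik3c3, Atg9b, Atg4a, Atg4c, Atg10, Atg16l2 and Wdfy3. Of the 35 neighbouring pairs in the order of mean TPM, 16 had library values that did not overlap.

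**Figure D1:**
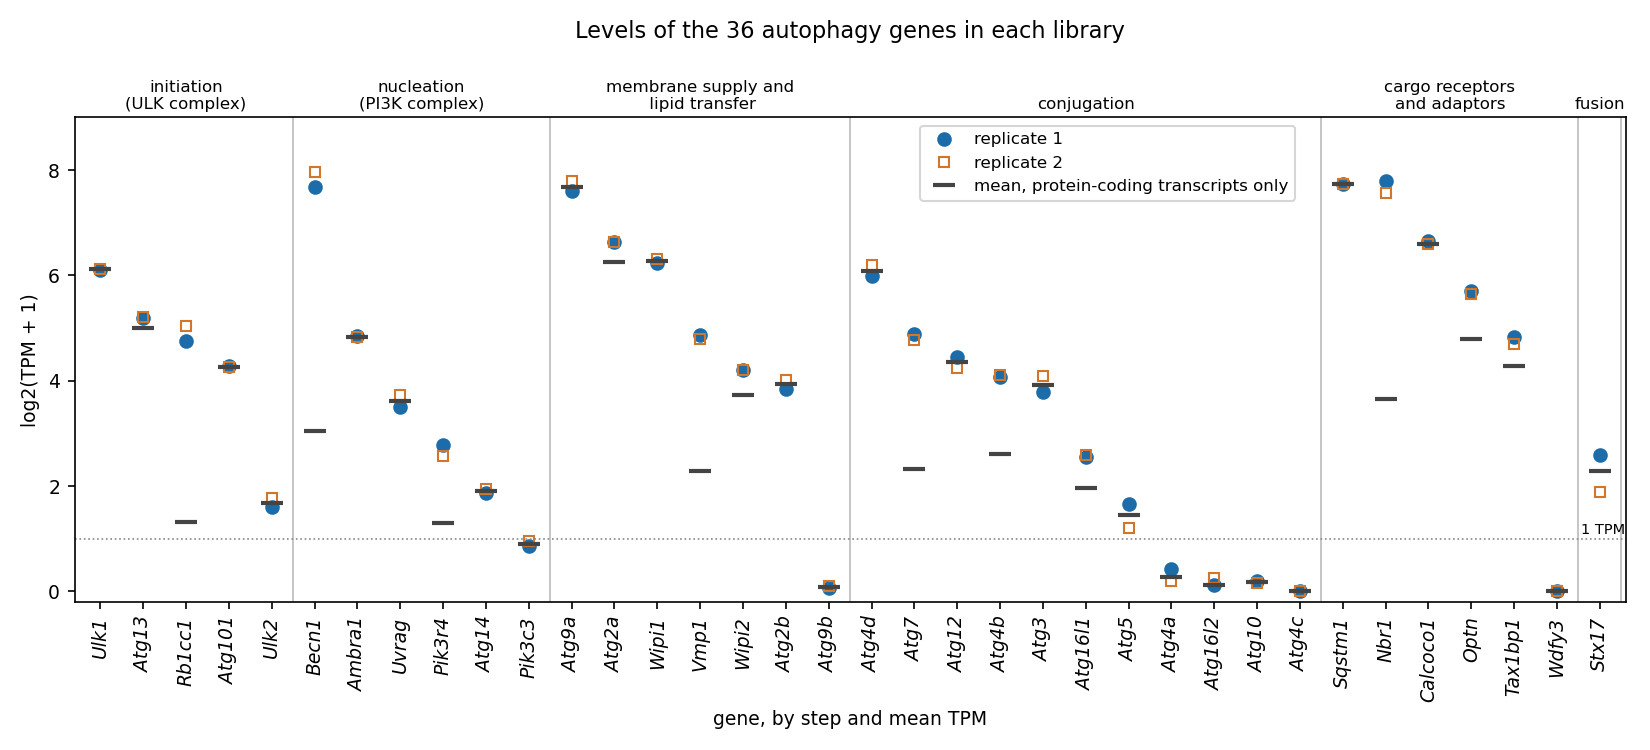
The y axis is log2(TPM + 1) and the x axis lists the 36 genes by step and mean TPM, with filled circles for replicate 1, open squares for replicate 2, and horizontal marks for the mean when transcripts annotated as protein-coding alone were summed. The mark of Becn1 lies far under its symbols (7.24 against 227 TPM), as do those of Nbr1, Rb1cc1, Vmp1 and Atg7, and 7 genes do not reach the dotted line at 1 TPM in both libraries.

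All 5 initiation genes were expressed, and Ulk1, the kinase that phosphorylates the downstream complexes, was the highest. Ulk1 had 68.21 and 69.05 TPM in replicates 1 and 2 (68.6 ± 0.594), from 25720 and 19920 counts. Its paralog Ulk2 had 2.03 and 2.41 TPM, so Ulk1 exceeded it 33.6-fold in replicate 1 and 28.7-fold in replicate 2. Atg13, the adaptor that links the kinase to its scaffold, had 35.69 and 36.25 TPM. Its partner Atg101, which stabilises ATG13, had 18.3 ± 0.0354 TPM. Rb1cc1 encodes FIP200, the scaffold of the complex, and had 26.05 and 31.96 TPM. Transcripts of Rb1cc1 annotated as protein-coding made up 1.49 and 1.48 TPM of these.

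The 6 genes of the nucleation step covered a wide range, with the lipid kinase itself the lowest. Pik3c3 (VPS34, the catalytic subunit) had 0.82 and 0.94 TPM, from 186 and 158 counts. Pik3r4 (VPS15, its regulatory subunit) had 5.94 and 4.92 TPM, of which protein-coding transcripts took 1.82 and 1.12 TPM. Becn1, which encodes the scaffold beclin 1, had 204.11 and 248.98 TPM, the highest mean of all members. The Becn1 level was 249-fold above Pik3c3 in replicate 1 and 265-fold in replicate 2. With protein-coding transcripts alone the log2 ratio of Becn1 to Pik3c3, on the log2(TPM + 1) scale, fell from 6.91 to 2.01. Atg14 and Uvrag encode the alternative subunits that send the complex to autophagosome formation and to endosomal sites, and had 2.75 ± 0.134 and 11.3 ± 1.36 TPM. Uvrag was thus 3.92-fold above Atg14 in replicate 1 and 4.33-fold in replicate 2. Ambra1, which binds beclin 1 and regulates the complex, had 27.6 ± 0.389 TPM.

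Genes of membrane supply and lipid transfer were expressed with 1 exception, Atg9b. Atg9a, the transmembrane scramblase carried on the vesicles that seed the membrane, had 192.45 and 220.91 TPM, while Atg9b had 0.04 and 0.07 TPM from 12 and 15 counts. Atg2a, which moves lipid from the endoplasmic reticulum into the growing membrane, had 97.89 and 98.2 TPM, and Atg2b had 14.3 ± 1.15 TPM. The leading Atg2a transcript, Atg2a-204, has an incomplete coding sequence and took 48.45% and 44.14% of the TPM. With complete coding transcripts alone Atg2a had a mean of 29.9 TPM, and its log2 ratio to Atg2b fell from 2.70 to 1.02. The phosphoinositide-binding genes Wipi1 and Wipi2 had 76.3 ± 3.27 and 17.4 ± 0.0283 TPM. Vmp1, a scramblase of the endoplasmic reticulum, had 27.5 ± 0.976 TPM, of which protein-coding transcripts took 3.86 ± 0.778.

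The conjugation enzymes were lower, with a median of 4.96 TPM over 11 genes, and 4 of them did not reach 1 TPM. Atg7 encodes the E1-like enzyme that activates both ubiquitin-like proteins and had 28.56 and 26.54 TPM. Transcripts of Atg7 annotated as protein-coding made up 4.22 and 3.84 TPM of these. Of the E2-like enzymes, Atg3, which serves the ATG8 proteins, had 12.8 and 16.06 TPM. Atg10, which serves ATG12, had 0.14 and 0.12 TPM from 15 and 10 counts. Atg12 itself had 20.97 and 18.05 TPM. Its conjugation partner Atg5 had 2.16 and 1.3 TPM, so Atg12 exceeded Atg5 9.71-fold in replicate 1 and 13.9-fold in replicate 2. Atg16l1, the third subunit of the E3-like complex, had 4.96 ± 0.141 TPM. Its paralog Atg16l2 had 0.09 and 0.19 TPM.

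The ATG4 proteases, which trim ATG8 proteins before conjugation and release them from membranes, were unequal. Atg4d had 62.09 and 72.35 TPM and was the highest of the 11 conjugation genes. Atg4b, commonly described as the most active family member, had 15.96 and 16.26 TPM. Atg4d was 3.89-fold and 4.45-fold above Atg4b, and the gap was wider with protein-coding transcripts alone, where Atg4b had 5.88 and 4.40 TPM. Atg4a had 0.34 and 0.14 TPM from 44 and 16 counts. Atg4c had 1 count in replicate 1 (exact 95% Poisson interval 0.0253 to 5.57 counts) and 2 counts in replicate 2.

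Cargo receptors had the highest median of the 6 steps, 73.8 TPM, and 22.7 TPM with protein-coding transcripts alone. Sqstm1 (p62), the receptor for ubiquitinated cargo, had 212.64 and 212.08 TPM, a spread of 0.396 TPM around 212. Nbr1, a receptor that works together with p62, had 220.67 and 189.54 TPM, and the 2 genes were not separated. With protein-coding transcripts alone, Sqstm1 kept 211 ± 0.113 TPM and Nbr1 had 11.6 ± 0.163 TPM. Calcoco1, a receptor for endoplasmic reticulum and Golgi, had 99.72 and 95.55 TPM. The ubiquitin-binding receptors Optn and Tax1bp1 were lower, with 50.87 and 49.18 TPM for Optn and 26.2 ± 1.68 TPM for Tax1bp1. Wdfy3, a large adaptor for aggregates, had 0 counts in replicate 1, which allows up to 3 counts, and 1 count in replicate 2. Stx17, the fusion gene among the members, had 5.06 and 2.68 TPM. Most of its TPM (81.0% ± 0.898) was on a transcript with an incomplete coding sequence, Stx17-204. By counts the complete coding transcript Stx17-202 led with 56.2% and 61.6%, and Stx17-204 held 34.5% and 30.6%.

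The transcript tables changed the order of the members. In 17 members with 2 or more annotated transcripts and a level of 10 TPM or above in each library, the transcript with the largest share of TPM was the same in both libraries for 15, against 90.6% of 3404 protein-coding genes held to the same rule. The exceptions were Becn1 and Atg9a. In 6 of the 17 members the leading transcript of each library was not annotated as protein-coding, against a background of 28.3%. These were Becn1, Nbr1, Rb1cc1, Vmp1, Atg7 and Atg4b. Ranked by estimated counts, which do not divide by length, 3 of 17 had a leading transcript of that kind, against 16.8%. The median share of TPM on protein-coding transcripts was 70.6% in the 17 members and 89.7% in the 3404 genes, and by counts it was 85.9% and 94.8%. Summing protein-coding transcripts alone moved Becn1 from rank 1 to rank 19 of 36, Nbr1 from 4 to 17, Rb1cc1 from 12 to 28 and Vmp1 from 15 to 23. Sqstm1 and Atg9a then took ranks 1 and 2. The median over all 36 members was then 9.29 TPM, against 9.98 TPM in protein-coding genes with at least 1 TPM.

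Entries with the largest share of TPM in Becn1, Nbr1, Rb1cc1, Vmp1 and, at a lower level, Pik3r4 are shown at the point where they leave the coding exons, because those letters are what separates them from the coding transcript. Each line gives the RNA strand in mm10 coordinates from GENCODE M21. Lower case marks coding exon bases, and capitals mark bases outside the exons of the coding transcript named after it.
Becn1-211 against Becn1-205, chr11:101295402-101295436, minus strand: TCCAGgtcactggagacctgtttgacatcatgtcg
Nbr1-216 against Nbr1-202, chr11:101576380-101576439, plus strand: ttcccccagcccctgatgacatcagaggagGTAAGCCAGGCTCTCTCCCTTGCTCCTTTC
Rb1cc1-213 against Rb1cc1-201, chr1:6230044-6230103, plus strand: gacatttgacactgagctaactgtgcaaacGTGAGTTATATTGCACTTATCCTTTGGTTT
Vmp1-204 against Vmp1-201, chr11:86664624-86664683, minus strand: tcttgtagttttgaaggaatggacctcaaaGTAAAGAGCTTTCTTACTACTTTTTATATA
Pik3r4-209 against Pik3r4-210, chr9:105654057-105654116, plus strand: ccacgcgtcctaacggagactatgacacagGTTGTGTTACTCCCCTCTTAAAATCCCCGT
In the last 4 the exon runs on into the intron, whose first bases are GT. In Becn1-211 the capitals stand ahead of the coding exon and number 5 bases.

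Becn1 (chr11:101285952-101302286, minus strand) had the lowest protein-coding share of the 17 members, 1.92% and 4.24% of TPM and 4.35% and 8.13% of counts. Becn1-211, a retained-intron entry of 487 bases, took 52.12% and 41.73% of its TPM. Becn1-209, a processed transcript of 463 bases at the start of the gene, took 37.63% and 48.77%. Of the 487 bases of Becn1-211, 482 lay in coding exons of Becn1-205, so fragments from this stretch carry the same letters in both entries, and the 2 sources cannot be told apart there. Becn1-211 held 2632 and 1875 counts on effective lengths of 332 and 315 bases, and Becn1-205, of 4365 bases, held 133 and 102 counts. Protein-coding transcripts together had 3.91 and 10.6 TPM in the 2 libraries, a larger relative spread than that of the gene total. Becn1 exons shared 43.9% of their bases with Cntd1 on the opposite strand. Cntd1 had 16 and 1 counts. Its exons covered 12.1% of the bases of Becn1-211 and none of Becn1-209, and its part in the Becn1 values was not tested.

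Nbr1 (chr11:101552149-101581951, plus strand) was also led by short entries, but its protein-coding share differed more between TPM and counts than that of Becn1. Nbr1-216, a retained-intron entry of 639 bases, took 56.18% and 69.02% of the TPM and 48.6% and 53.8% of the counts. Of its bases, 65.3% lay in the coding exons of Nbr1-202. Nbr1-218, of 342 bases, took 38.47% and 24.84% of the TPM, and all its bases lay in exons of the same coding transcript. The protein-coding share of Nbr1 was 5.68% ± 0.530 of TPM and 38.7% ± 0.510 of counts.

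Rb1cc1-213, a retained-intron entry of 1151 bases near the start of Rb1cc1 (chr1:6206197-6276648, plus strand), took 93.08% and 94.73% of the TPM and 71.1% and 76.7% of the counts. Unlike Becn1-211, 45.2% of its bases lay in exons of the coding transcript and 6.17% in coding sequence, and its intron side ran into an intron of 3887 bases. Pik3r4-209 held a whole intron of 729 bases and took 66.01% and 73.84% of the TPM of Pik3r4. In Vmp1, Vmp1-204 of 420 bases took 77.61% and 75.39% of the TPM, while by counts the coding transcript Vmp1-201 led with 61.7% and 57.5%. Atg7 and Atg4b behaved like Vmp1. Atg7-213, of 408 bases at the far end of the gene, took 72.5% and 52.91% of TPM but 24.6% and 16.2% of counts. Atg4b-210, of 343 bases, took 54.11% and 66.52% of TPM from 121 and 106 counts.

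Most of the other expressed members were led by coding transcripts. Ulk1, Atg101, Atg14, Uvrag, Atg2b, Atg4d, Atg5, Atg10 and Atg12 had 1 annotated transcript each, protein-coding in every case. Of these, Atg10 did not reach 1 TPM. Sqstm1 was led by Sqstm1-205 with 76.71% and 74.01% of its TPM, Wipi1 by Wipi1-202 with 97.24% and 96.85%, and Ambra1 by Ambra1-205 with 56.8% and 64.28%. In Atg13, Atg13-202 fell from 79.88% in replicate 1 to 47.88% in replicate 2, while Atg13-201 went from 3.91% to 40.28%. In Atg16l1, the retained-intron entry Atg16l1-208 had 7.29% and 45.25% and led in replicate 2, where coding transcripts held 41.6% of TPM against 76.3% in replicate 1. Optn was led by the coding Optn-202 with 49.0% and 58.26%, close to the processed transcript Optn-204 with 47.91% and 38.48%. Atg9a had no dominant entry, and its leading one was Atg9a-204 in replicate 2 with 33.94%, a transcript with an incomplete coding sequence. Complete coding transcripts of Atg9a alone summed to a mean of 118 TPM. Atg9a also shared 1832 exon bases on its own strand with Gm29253, which had 141 and 164.68 TPM, so the split between the 2 genes is uncertain. Atg4d and Sqstm1 shared 19.3% and 17.3% of their exon bases with Kri1 and Mrnip on the opposite strand, and Uvrag shared 17.6% with Gm45187. Kri1 had 57.44 and 52.31 TPM, near the level of Atg4d, and Mrnip had 6.45 and 4.83 TPM. Whether the counting used strand is not stated in the sources used here, so the Atg4d level is uncertain where the genes overlap.

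**Figure D2:**
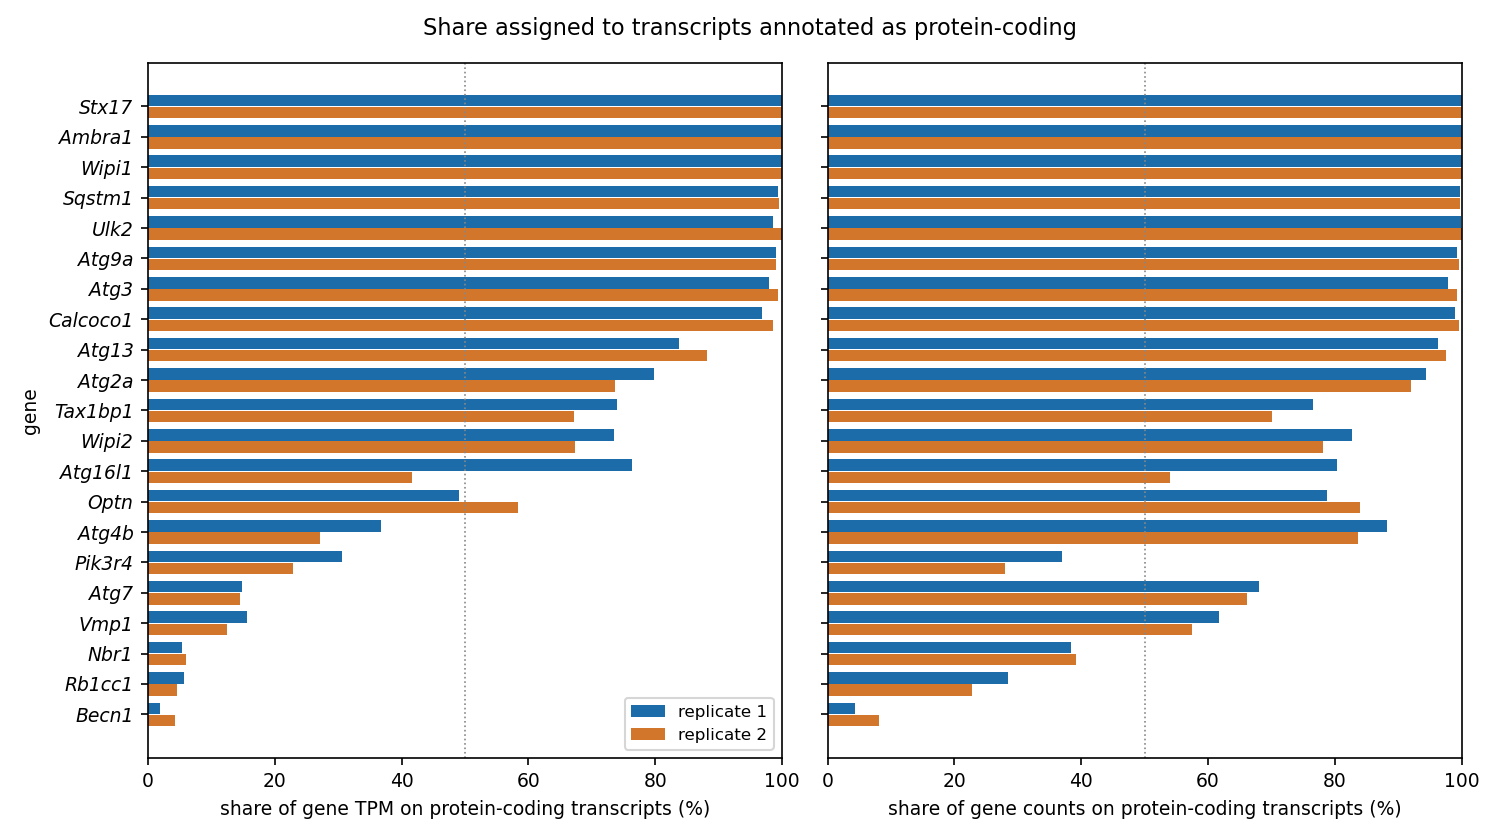
Bars give the share of a gene's TPM (left) and of its counts (right) assigned to transcripts annotated as protein-coding, in percent, for members with 2 or more transcripts and 1 TPM or above in each library, with replicate 1 in blue and replicate 2 in orange. Becn1, Rb1cc1 and Nbr1 stay below the dotted 50% line on both sides, as does Pik3r4, while Atg4b, Atg7 and Vmp1 cross it when counts are used.

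In each of the 6 paralog families the same member had the largest share of TPM in both libraries. All families but ATG4 hold 2 genes here, so 1 gene holding most of the sum is no finding in itself. The size of the shares was not compared with other families. Atg9a held all but 0.0208% and 0.0317% of the ATG9 sum. Atg16l1 held 97.3% ± 1.27 of its family, Ulk1 96.9% ± 0.341, Atg2a 87.3% ± 0.866, Wipi1 81.4% ± 0.626 and Atg4d 80.4% ± 1.63. With protein-coding transcripts alone the leading paralog was the same in all 6, with Atg4d at 92.5% ± 2.19 and Atg2a at 84.0% ± 1.80. Complete coding transcripts gave Atg2a 69.5% and 65.9% of its family. Over 20 paralog and partner pairs, 17 differed by at least 2-fold on the log2(TPM + 1) scale in both libraries. The 3 that did not were Ulk1 and Atg13 (mean log2 ratio 0.91), Atg13 and Atg101 (0.94), and Sqstm1 and Nbr1 (0.05). The pairs were chosen with earlier results of these data known. No share over other gene pairs was taken, so the count describes these pairs alone. Ulk1 stood above Rb1cc1 by a log2 ratio of 1.22, a direction that turned to -0.55 after adjustment for GC content and rose to 4.81 with protein-coding transcripts. The leading paralog had the highest GC content in 4 of the 6 families and not in ATG9 and ATG16. Across the 36 members GC content and level had a Spearman rho of 0.34 (Pearson 0.28), and across 7570 expressed protein-coding genes in the same libraries rho was 0.30. The part of GC content in these ratios was not tested.

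**Figure D3:**
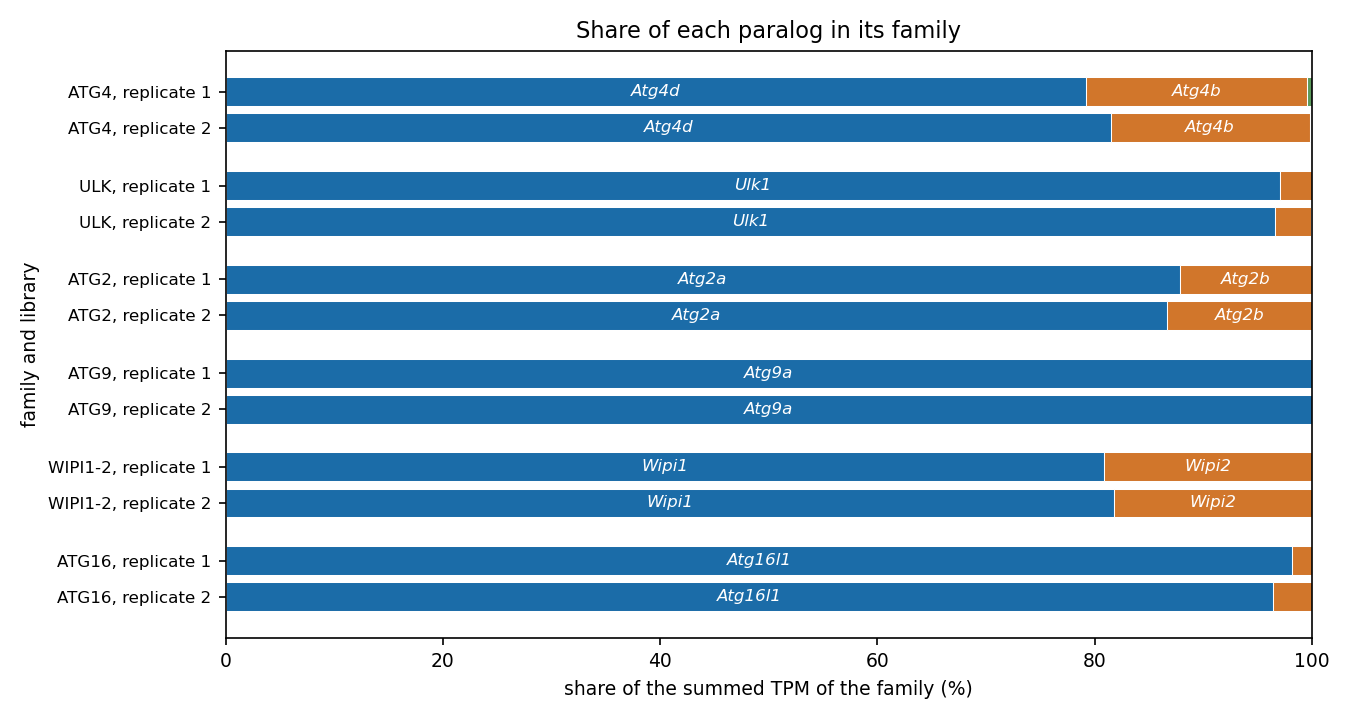
Each bar splits the summed TPM of a paralog family in 1 library into the shares of its members, in percent, with the x axis from 0 to 100. Ulk1, Atg2a, Atg9a, Wipi1, Atg4d and Atg16l1 take the largest segment in both libraries, between 79.2% for Atg4d in replicate 1 and nearly the whole bar for Atg9a.

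Promoter letters were compared for the ATG4 family, because Atg4d and Atg4c had its highest and lowest levels. RefSeq (GRCm38.p6, the build of mm10) gave windows for 30 members, 36 windows in all, and the 250 bases ahead of each start site were used. The sequences of Atg4d (67.2 TPM) and of the window of Atg4c without annotated exon bases (0.00500 TPM) are given with each CG dinucleotide in capitals, to show how its density differs.
Atg4d, chr9:21265035-21265284, plus strand: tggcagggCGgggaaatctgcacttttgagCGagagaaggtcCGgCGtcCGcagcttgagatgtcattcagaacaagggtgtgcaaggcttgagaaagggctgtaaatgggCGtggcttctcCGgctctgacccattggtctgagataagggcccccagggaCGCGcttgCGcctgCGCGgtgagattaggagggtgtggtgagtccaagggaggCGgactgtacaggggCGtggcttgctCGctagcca
Atg4c, chr4:99193684-99193933, plus strand: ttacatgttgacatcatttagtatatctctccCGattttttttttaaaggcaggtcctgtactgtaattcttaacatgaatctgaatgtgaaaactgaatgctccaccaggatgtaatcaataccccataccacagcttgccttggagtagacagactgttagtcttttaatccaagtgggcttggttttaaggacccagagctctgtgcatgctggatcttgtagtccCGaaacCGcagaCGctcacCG
The Atg4d window held 15 CG dinucleotides (observed to expected ratio 0.710) and the Atg4c window 5 (0.439). A further Atg4c window, which overlaps annotated exon, had a ratio of 0.815, so the contrast depends on the start site. The other family windows did not follow the order of the levels: that of Atg4b had a ratio of 1.13 from 43 CG, above Atg4d, and both of Atg4a had 0.353 and 0.551. Over the 36 member windows the median ratio was 0.734, against 0.374 in all 32851 RefSeq windows. The lowest ratio among them was that of Atg9b, 0.0706 from 1 CG. Atg9a had 0.747, but all 250 bases of its window are annotated exon. The start of that window is 5963 bases ahead of the transcript Atg9a-204.

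The letters AGATAA, the core bound by GATA factors, were searched on both strands. They stood in 2 of the 36 member windows (5.56%), those of Atg4d, 107 bases ahead of the start, and of Atg4a, 83 bases ahead, and in 9.99% of all windows. The Atg4a start of that window lies 3062 bases ahead of the leading transcript Atg4a-201. The window at the start of Atg4a-201 itself held no match. The E-box CACGTG stood in 3 member windows (8.33%), those of Atg3, Atg5 and Atg7, against 6.02%. The Atg7 window lies inside the gene, and its start is 185055 bases ahead of the leading transcript Atg7-213. Of the 250 bases of the Atg3 window, 172 are annotated exon. The letters CCAAT stood in 10 (27.8%) against 33.8%. A match describes the letters and does not show that a factor binds.

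The libraries differed for many members by small amounts. Of the 34 members with at least 20 summed counts, 13 were higher in replicate 2 and 9 lower by the exact binomial test on counts with Benjamini-Hochberg adjustment over 10445 genes, where 30.0% of genes were higher and 29.2% lower. Atg4c and Wdfy3 had too few counts to be tested. In either direction 22 members (64.7%) were called, against 59.2%. This test compares the reads of these 2 libraries, and with such depth it calls small differences. Scaling by library totals in place of TMM turned the split of members from 13 higher and 9 lower to 10 and 12, and that of all genes from 3136 and 3047 to 2423 and 3776. The median absolute log2 ratio was 0.18 in the members and 0.24 in all genes tested. Past a 1.5-fold difference there were 2 members higher in replicate 2 (background 5.13%) and 3 lower (background 10.4%), 5 in all against 15.5%.

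The 3 lower genes had few counts. Stx17 had 413 counts in replicate 1 and 180 in replicate 2, and was 1.66-fold lower after scaling (exact binomial test, adjusted p = 1.85e-08). Atg5 had 353 and 162 counts and was 1.58-fold lower (exact binomial test, adjusted p = 2.63e-06), and Atg4a had 44 and 16 and was 1.96-fold lower (adjusted p = 0.0319). Both genes past 1.5-fold in the other direction, Atg9b with 12 and 15 counts and Atg16l2 with 9 and 16, missed the threshold of 0.05 (exact binomial test, adjusted p = 0.239 and 0.0660). By step, against the 30.0% of all genes called higher and 29.2% called lower, 4 of 5 initiation genes were higher in replicate 2 and none lower, with ratios up to 1.27-fold in Ulk2, and 3 of 5 with library totals, where Ulk1 lost its call. Of 6 nucleation genes 2 were higher and 1 lower, and of 7 membrane supply genes 2 were higher and 2 lower. Of 10 conjugation genes tested, 2 were higher, Atg3 by 1.32-fold and Atg4d by 1.22-fold, and 4 were lower. Among the cargo receptors 3 of 5 were higher by at most 1.13-fold, and Tax1bp1 was lower by 1.06-fold. With library totals Sqstm1 and Calcoco1 lost their calls and Nbr1 was called lower (log2 ratio -0.11, exact binomial test, adjusted p = 1.42e-05), which left 1 receptor higher and 2 lower. The myeloid marker sum also differed between the libraries, 0.320 against 10.9 TPM, and its part in these differences was not tested.

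**Figure D4:**
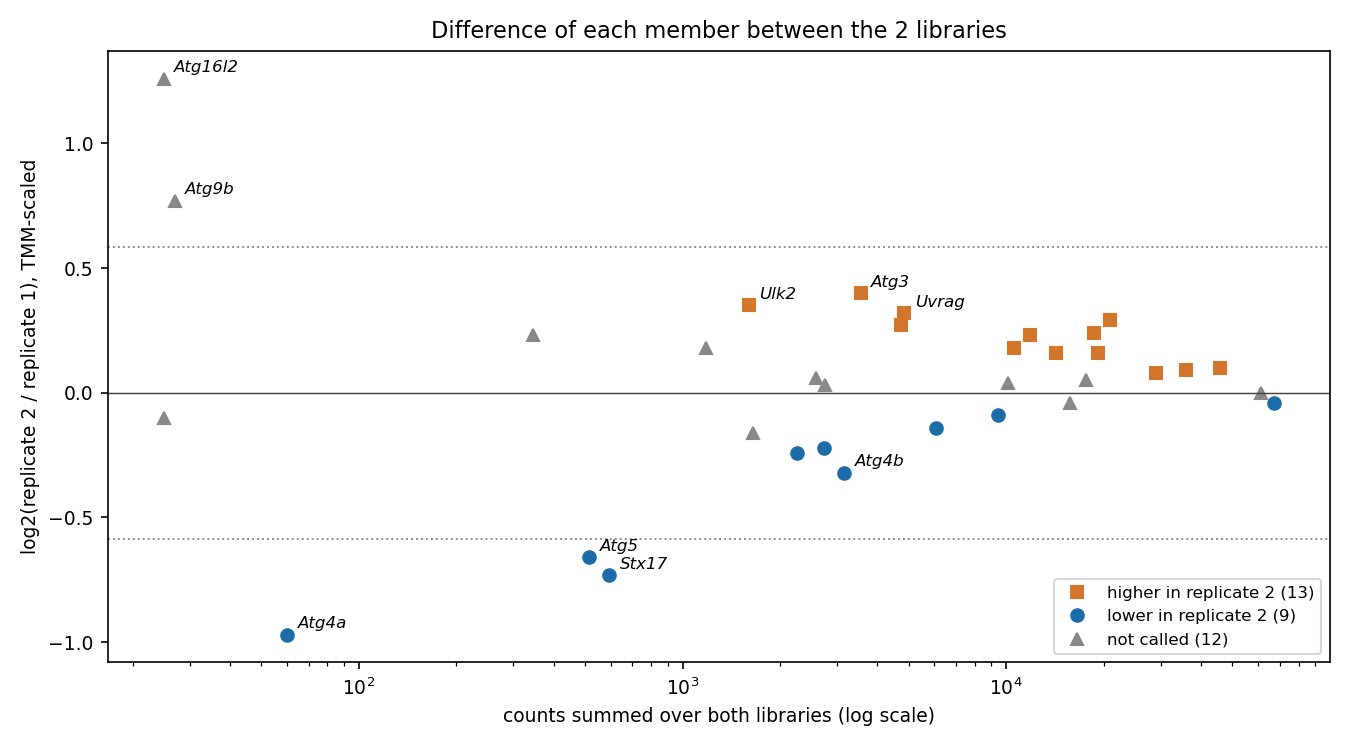
Each point is a member, with its counts summed over both libraries on a log x axis and the log2 ratio of replicate 2 to replicate 1 after TMM scaling on the y axis. Squares were called higher in replicate 2 (13), circles lower (9) and triangles not called (12), and of the 5 members outside the dotted lines at 1.5-fold, Atg9b, Atg16l2 and Atg4a lie at the left, with the fewest counts.

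Genes that work with the machinery were taken from 6 lists of 53 genes, of which 46 reached 1 TPM in both libraries. Of 49 tested between the libraries, 21 were higher and 13 lower in replicate 2, where 30.0% and 29.2% of all genes were called. The ATG8 proteins, the substrates of the conjugation enzymes, were all 5 expressed. Gabarap was highest at 726.99 and 620.66 TPM, above every one of the 36 members, Gabarapl1 had 101 ± 7.24 TPM and Gabarapl2 was lowest at 2.47 ± 0.573 TPM. The 2 LC3 genes moved in opposite directions between the libraries. Map1lc3b had 116.32 and 65.57 TPM and was 1.63-fold lower in replicate 2, whereas Map1lc3a had 52.45 and 83.42 TPM and was 1.66-fold higher (exact binomial test, adjusted p = 4.28e-114). The higher of the 2 LC3 genes was therefore not the same in both libraries.

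Among other core partners, Nrbf2, a subunit of the class III kinase complex, had 46.9 ± 1.97 TPM. Tmem41b, a scramblase that acts with VMP1, had 34.6 ± 0.134 TPM, of which protein-coding transcripts took 0.460 and 0.350 TPM. The WIPI relative Wdr45 had 18.2 ± 2.74 TPM. The tether Epg5 was lowest of these partners by gene total, at 2.17 ± 0.184 TPM, and Tmem41b was lowest with protein-coding transcripts alone. Of 13 partners in fusion, the SNARE Vamp8 had 137 ± 15.7 TPM, the GTPase Rab7 72.2 ± 9.72 and the tethering subunit Vps18 60.9 ± 5.85, while Snap29, the SNARE that pairs with syntaxin 17, had 11.6 ± 1.15. The lowest was Stx7 at 0.660 ± 0.0849 TPM.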

How the data were processed

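Each library had a deposited gene table and transcript table. Per the deposited description files, values refer to mm10 and GENCODE M4. The aligner and quantifier are not stated in the sources used here. Per the file headers, the authors gave expected counts, which are estimated fragment numbers and need not be whole. The authors' deposited TPM values are per effective length at a total of 1000000, and the deposited FPKM values are, per the file headers, fragments per length and per library size. For each transcript the authors also deposited its percent of the gene's TPM.

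The members, lists and pairs were chosen with earlier results of these data known. Gene entries were used, and 26248 entries named by a number alone (9 counts) and 97 others (0 counts) were left out. GENCODE M21, also on mm10, gave names, types, coordinates and GC content, and its models may differ from M4. Levels are TPM. List medians given in TPM are of mean TPM, and those given as log2 are of mean log2(TPM + 1). Protein-coding sums follow the M21 transcript type and were added after the data were seen, as were sums of complete coding transcripts. Intervals are exact at 95% and, like the floor of 3 counts for a count of 0, cover counting error.

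Expected counts were rounded, scaled by TMM (edgeR 4.0.16, R 4.3.3) and compared between libraries with an exact two-sided binomial test per gene (minimum of 20 summed counts), adjusted by Benjamini-Hochberg at 0.05 and a 1.5-fold rule beside it. On simulated counts for this comparison over 10457 genes, it called 92.0% of genes at a true fold of 2, 79.2% at 0.5, 52.0% at 1.25, 56.2% at 0.8 and 0.0487% of unchanged genes. These held counting noise alone, so the last is no error rate for real libraries. All members are named, with the 3 highest and the lowest gene of each pathway list. Mrnip, Kri1, Cntd1, Gm29253, Snap29, the LC3 genes and the other pathway genes outside this rule were named with their values known. So were the myeloid genes and the erythroid genes. Alternatives tried were FPKM, posterior means, a pseudocount of 0.1 in place of 1, a filter at 1 TPM, TPM without globin and mitochondrial genes, GC adjustment by a cubic trend, library totals, DESeq2 1.42.0 size factors, other count minimums, shares of counts and leaving out each replicate. Python 3.11.15, numpy 2.4.6, scipy 1.17.1 and pandas 2.3.3 were used. The values of 1 gene of the lists are not reported here.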

Additional observations from a re-analysis of the deposited data

How the results depend on the processing

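The median member level, 4.24 as log2(TPM + 1), was 4.26 with FPKM, 4.22 with posterior means, 4.17 with a pseudocount of 0.1, 4.69 with globin and mitochondrial genes left out of the total, 4.39 after GC adjustment and 4.83 over members with at least 1 TPM. Leaving out 1 replicate gave 4.23 to 4.24. With protein-coding transcripts alone it was 3.27, and with complete coding transcripts 3.15. The count of pairs at least 2-fold apart, 17 of 20, ranged from 16 to 18 over all alternatives run. The log2 ratio of Ulk1 to Rb1cc1 turned from 1.22 to -0.55 after GC adjustment, the one reversal among the 17 pairs, and that of Sqstm1 to Nbr1 went from 0.05 to -0.88. Members led by a transcript not annotated as protein-coding numbered 6 by TPM and 3 by counts.

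The 1.5-fold rule depended on the count minimum. With a minimum of 1 summed count in place of 20, genes past it went from 536 to 2711 higher in replicate 2, from 1084 to 3412 lower and from 1620 to 6123 in all, and members higher from 2 to 4. With a minimum of 100 the 3 gene counts were 300, 708 and 1008, members higher were 0, and members in either direction 2 in place of 5. With library totals the log2 difference of Atg2a, 0.00 by TMM, was -0.06 (exact binomial test, adjusted p = 1.57e-07, and 0.752 by TMM). Depth limits Atg4a, Atg4c, Atg9b, Atg10, Atg16l2 and Wdfy3, with at most 44 counts in a library. No paired analysis was possible because both libraries belong to 1 group.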

Other observations

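Genes of mitochondrial autophagy were measured from a list of 11. Fkbp8, an outer-membrane receptor that binds LC3, had 1671.31 TPM in replicate 1 and 1988.44 in replicate 2, above all 36 members. Bnip3 had 194.32 and 168.89 TPM. Its paralog Bnip3l (NIX), the receptor known for mitochondrial removal in maturing red cells, had 59.58 and 47.74 TPM. Phb2, an inner-membrane receptor, had 89.7 ± 4.62 TPM. The kinase gene Pink1 had 84.5 ± 6.76 TPM. Among 7 other receptors Tollip had 209 ± 1.17 TPM, Sec62 41.0 ± 3.75 and Tex264 39.2 ± 1.20. Calcoco2 had 0 counts in both libraries, each of which allows up to 3 counts. Ncoa4, the ferritin receptor, had 9.82 and 8.35 TPM.

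Upstream regulators reached 1 TPM in 9 of 11 cases. Akt1s1 (PRAS40, an inhibitor of mTORC1) had 583 ± 40.5 TPM, Stk11 (LKB1, the kinase that activates AMPK) 381 ± 9.77, and Foxo3, a transcription factor known to drive autophagy genes, 276 ± 24.7. Of the AMPK catalytic subunits, Prkaa1 had 2.5 and 1.79 TPM and Prkaa2 had 0 counts in both libraries. The lysosomal regulator Tfe3 had 136.35 and 156.19 TPM, and its relative Tfeb had 13.36 and 14.68 TPM.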
